A study of Mus musculus with 6 samples.

Results

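The genes Ppl, Dkkl1, Eng, Myo7a and Inppl1 differed from wild type in B cells lacking zinc finger 1 of Ikaros and lay near wild type in B cells lacking finger 4. These 5 genes were chosen by that very pattern, out of 22098 gene names in the table, so their levels in the 3 genotypes are a description and carry no test. Messenger RNA was selected by its poly(A) tail from sorted B cells bearing IgM at the surface, taken from the bone marrow of 6-week-old C57BL/6 mice, and each genotype has 2 libraries: wild type, Ikaros ZnF1-/- and Ikaros ZnF4-/-. Values are RPKM, a read number corrected for transcript length and for the size of the library, and means are given with SD (n = 2). A log2 difference is between group means of log2(RPKM + 0.5), and it understates the change of weakly expressed genes. The labels do not say that the libraries of a genotype came from separate animals, so every spread and p-value given here measures only the spread between these samples. They do not say which exons each allele lacks, and no promoter or cell type restricts either allele in the labels.

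Ikaros, encoded by Ikzf1, is a DNA-binding zinc finger protein of the lymphoid lineage that recruits chromatin remodelling and deacetylase complexes and both represses and maintains genes during B cell development. Its inner N-terminal fingers make the core contact with DNA, and the outer fingers, finger 1 and finger 4, modify which sites are bound. Comparing the mutants therefore asks which RNAs depend on either outer finger in the same cell. None of the 5 genes is a classical B cell gene. Periplakin (Ppl) ties intermediate filaments to desmosomes in epithelia, Dickkopf-like 1 (Dkkl1) is a secreted protein of the male germ line related to Wnt antagonists, and endoglin (Eng, CD105) is a co-receptor for TGF-beta family ligands best known from blood vessel endothelium. Myosin VIIa (Myo7a) is an unconventional myosin of inner ear hair cells and retina. Inppl1 encodes SHIP2, a phosphatase that removes a phosphate from the lipid made by PI3-kinase and is the broadly expressed relative of the blood cell phosphatase SHIP1 (Inpp5d).

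The promoters of the genes are shown because Ikaros binds sites with the core TGGGAA. RefSeq windows from 250 bases before to 50 bases after a transcription start (build GRCm38.p6) were at hand for 4 of the 5 genes, with 6 windows in all. The outermost window of each gene is printed 5′ to 3′, and capitals mark matches to TGGGAA or to the E-box CAGNTG on either strand.
Eng (chr2:32646345-32646644, plus strand): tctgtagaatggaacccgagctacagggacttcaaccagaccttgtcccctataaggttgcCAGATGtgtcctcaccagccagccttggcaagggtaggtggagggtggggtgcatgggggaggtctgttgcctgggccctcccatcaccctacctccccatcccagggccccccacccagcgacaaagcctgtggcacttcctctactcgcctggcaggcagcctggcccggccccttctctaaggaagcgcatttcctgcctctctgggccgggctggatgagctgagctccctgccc
Dkkl1 (chr7:45211834-45212133, minus strand): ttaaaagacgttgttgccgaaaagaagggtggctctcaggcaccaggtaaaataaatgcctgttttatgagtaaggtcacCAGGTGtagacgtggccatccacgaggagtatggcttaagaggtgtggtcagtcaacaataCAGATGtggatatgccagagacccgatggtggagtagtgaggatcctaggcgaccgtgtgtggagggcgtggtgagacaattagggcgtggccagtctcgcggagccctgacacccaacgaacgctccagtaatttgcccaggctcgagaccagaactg
Myo7a (chr7:98119444-98119743, minus strand): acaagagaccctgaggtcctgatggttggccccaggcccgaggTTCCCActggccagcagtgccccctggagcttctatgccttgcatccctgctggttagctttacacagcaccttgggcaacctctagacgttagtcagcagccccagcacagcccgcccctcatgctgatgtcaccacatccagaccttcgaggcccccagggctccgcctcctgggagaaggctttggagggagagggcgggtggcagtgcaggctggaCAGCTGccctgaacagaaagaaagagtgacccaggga
Inppl1 (chr7:101838177-101838476, minus strand): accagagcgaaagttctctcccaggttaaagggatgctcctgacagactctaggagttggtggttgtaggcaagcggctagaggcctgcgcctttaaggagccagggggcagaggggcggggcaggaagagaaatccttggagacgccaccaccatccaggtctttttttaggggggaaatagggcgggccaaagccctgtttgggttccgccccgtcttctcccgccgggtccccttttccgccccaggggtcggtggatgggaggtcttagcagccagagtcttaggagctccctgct
TGGGAA was found in 1 of the 6 windows, the outermost of Myo7a, on the minus strand, where it reads TTCCCA. Of all 32851 promoter windows in the table, 25.6% held it. CAGNTG was found in 5 of the 6 windows against 51.4% of all windows. The windows held between 53.0% and 64.7% G and C. A match is a description of letters and does not show binding.

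All 6 libraries held abundant B cell RNA: the summed RPKM of 6 B cell markers, among them Cd79b and Pax5, lay between 4482 and 5398. ZnF1-/- replicate 2 stood apart by RNA of other marrow cells, with granulocyte and monocyte markers summing above its 4482 for B cell markers. The summed RPKM of 13 granulocyte and monocyte markers reached 8018 there, compared with 1503 in its fellow ZnF1-/- library, 495.2 and 762.9 for wild type, and 1861 and 2047 for ZnF4-/-. Wild-type replicate 1 stood apart by plasma cell markers, with a sum over 5 markers of 538.4 against 59.0 in wild-type replicate 2 and 63.1 to 148.3 in the mutants; among them Sdc1 fell in ZnF1-/-, from 5.3 and 3.3 to 0.6 and 0.4 RPKM (log2 difference -2.24, SE 0.28, limma adjusted p = 0.0347). The number of gene names reaching 1 RPKM lay between 10025 and 10489 per library. Read totals could not be recovered from the rounded values, so the depth behind each value is unknown.

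Of the 5 genes, 3 were higher in ZnF1-/- than in wild type and 2 were lower. For none of the 5 did the ZnF1-/- libraries overlap the wild-type ones, which held for 41.5% of all tested genes, those with a mean of at least 1 RPKM. Wild-type cells had Ppl at 0.3 and 0.2 RPKM, with 3.5 and 3.0 in ZnF1-/-, and 0.2 and 0.3 in ZnF4-/-. The ZnF1-/- libraries were thus the only ones above 1 RPKM. Their mean of 3.25 ± 0.354 was 13-fold the wild-type mean of 0.25 ± 0.0707, and rounding of the table to steps of 0.1 alone leaves that ratio anywhere between 10.7 and 16.5. The log2 difference was 2.32 with 0.5 added, 3.27 with 0.1 added and 1.76 with 1 added, so its size rests on the handling of the low values. Ppl reached the minimum mean of 1 RPKM for testing through its ZnF1-/- libraries alone.

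Dkkl1 was at 2.2 and 1.6 RPKM in wild type, 9.8 and 10.7 in ZnF1-/-, and 1.3 and 1.5 in ZnF4-/-. Both ZnF1-/- libraries were far above the other 4, and the ZnF4-/- libraries were below both wild-type libraries. The ZnF1-/- mean of 10.2 ± 0.636 was 5.39-fold the wild-type mean of 1.90 ± 0.424, a log2 difference of 2.17. Among tested genes Dkkl1 went from percentiles 12.7 and 7.8 in the wild-type libraries to 42.9 and 46.1 in ZnF1-/-.

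Eng was at 0.8 and 1.1 RPKM in wild type, 4.3 and 4.9 in ZnF1-/-, and 0.6 in both ZnF4-/- libraries. As with Dkkl1, the ZnF1-/- libraries were the highest and the ZnF4-/- libraries the lowest. The ZnF1-/- mean of 4.60 ± 0.424 was 4.84-fold the wild-type mean of 0.95 ± 0.212 (log2 difference 1.82). These values belong to the transcript of 3445 bases. A second Eng transcript in the table, of 3586 bases, was at 0.3 and 0.4 RPKM in wild type, 1.3 and 1.4 in ZnF1-/-, and 0.3 and 0.2 in ZnF4-/-. The transcripts overlap in sequence, so this is not a separate measurement. Like Ppl, Eng was below 1 RPKM on average in both other genotypes and reached the minimum only through its ZnF1-/- libraries.

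**Figure D1:**
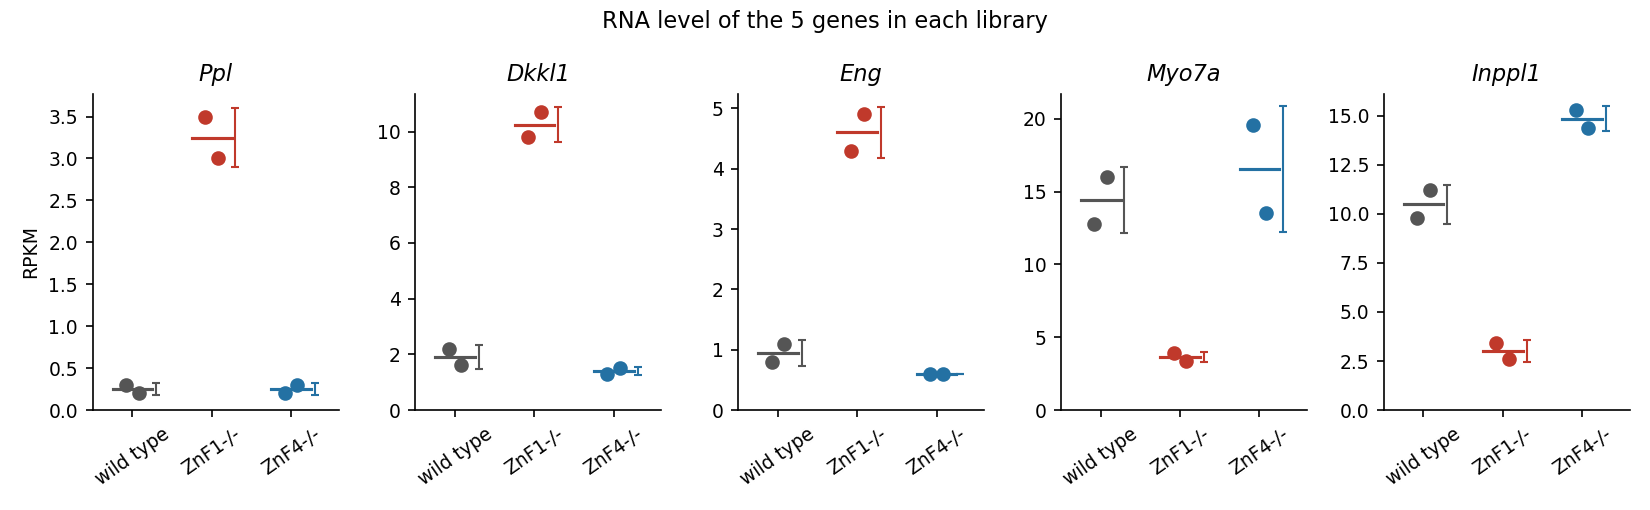
RPKM (linear axis from 0, different for each gene) of the 5 genes in the wild-type, ZnF1-/- and ZnF4-/- libraries; points are libraries, horizontal lines group means and error bars SD (n = 2). The ZnF1-/- libraries lie apart from all others for each gene, above them for Ppl, Dkkl1 and Eng and below them for Myo7a and Inppl1.

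Myo7a had the highest wild-type level of the 5 genes per length of transcript. Its values were 12.8 and 16.0 RPKM in wild type, 3.9 and 3.4 in ZnF1-/-, and 19.6 and 13.5 in ZnF4-/-. The ZnF4-/- libraries lay on either side of the higher wild-type library, and the ZnF1-/- libraries lay below all others. The wild-type mean of 14.4 ± 2.26 was 3.94-fold the ZnF1-/- mean of 3.65 ± 0.354, a log2 difference of -1.84.

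Inppl1 was at 9.8 and 11.2 RPKM in wild type, 3.4 and 2.6 in ZnF1-/-, and 15.3 and 14.4 in ZnF4-/-. The 3 genotypes did not overlap, with ZnF1-/- lowest and ZnF4-/- highest. The wild-type mean of 10.5 ± 0.990 was 3.5-fold the ZnF1-/- mean of 3.0 ± 0.566 (log2 difference -1.66). The ZnF4-/- mean of 14.8 ± 0.636 was 1.41-fold the wild-type mean. A longer Inppl1 transcript in the table, of 5021 bases, was listed at 0 in every library. In bulk RNA, a change in the share of cells that express a gene and a change in its RNA per cell cannot be told apart.

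Near wild type in ZnF4-/- was thus closest for Ppl, with a log2 difference of 0.00, and for Myo7a, with 0.18. It was -0.33 for Dkkl1, -0.39 for Eng and 0.48 for Inppl1, and for these 3 genes the ZnF4-/- libraries did not overlap the wild-type ones, as held for 50.4% of all tested genes. In 4 of the 5 genes the sign of the ZnF4-/- difference was opposite to that of the ZnF1-/- difference, with Ppl the exception. For Myo7a that sign rests on a single library, since its ZnF4-/- difference was -0.08 without ZnF4-/- replicate 1. Both differences share the wild-type libraries, so their signs are not independent. With quantile normalization the ZnF4-/- differences of Dkkl1 and Eng were -0.51 and -0.63. These values do not show that the RNA of the 5 genes is independent of finger 4.

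Between the mutants, the ZnF1-/- and ZnF4-/- libraries did not overlap for any of the 5 genes, which was so for 46.8% of all tested genes. The log2 difference of ZnF1-/- minus ZnF4-/- was 2.32 for Ppl, 2.5 for Dkkl1 and 2.21 for Eng, and it was -2.02 for Myo7a and -2.14 for Inppl1. As ratios of means, Dkkl1 was 7.32-fold and Eng 7.67-fold higher in ZnF1-/-, and Myo7a was 4.53-fold and Inppl1 4.95-fold higher in ZnF4-/-. For these 4 genes the distance between the mutants was larger than that between ZnF1-/- and wild type.

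**Figure D2:**
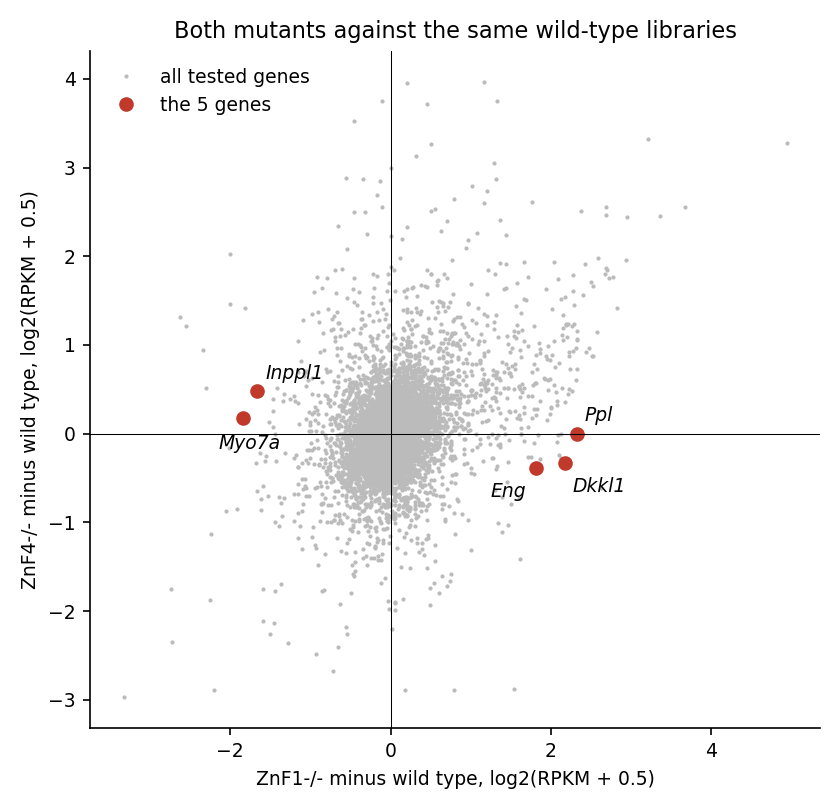
Each point is a tested gene, placed by its log2 difference of ZnF1-/- minus wild type (horizontal) and ZnF4-/- minus wild type (vertical); the wild-type libraries enter both axes. Ppl, Dkkl1 and Eng lie to the right at 1.82 to 2.32 and Myo7a and Inppl1 to the left at -1.84 and -1.66, all within 0.48 of 0 on the vertical axis.

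To place the 5 genes among the rest of the table, each comparison was fitted with limma over all 10322 tested genes, and a gene was called at a Benjamini-Hochberg adjusted p under 0.05. In ZnF1-/- against wild type 28 genes were called, 0.271% of those tested (0.0969% higher and 0.174% lower). In ZnF4-/- against wild type 3.2% were called (1.78% higher), and between the mutants 4.78% (2.08% higher in ZnF1-/-). The 28 include the 5 members, which were chosen on these same values, so their calls carry no test. Of the 28, members included, 15 were not called in ZnF4-/-, and 12 of the 15 were called between the mutants.

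The same pattern, taken as a ZnF1-/- log2 difference of at least 1 without overlap and a ZnF4-/- difference of at most 0.5, was met by 85 higher genes (0.823% of those tested) and 32 lower genes (0.31%), the 5 members included. Of the 28 called genes 10 met it, again with the 5 members included. Those not among the 5 members were Cd4 (log2 difference 1.97 in ZnF1-/- and 0.49 in ZnF4-/-), Sema7a (1.24 and 0.31), Lmo4 (-1.18 and -0.24), Znrd1 (-1.20 and -0.27) and Mmp14 (-1.47 and 0.26). Cd4 encodes the T helper cell co-receptor, Lmo4 a LIM-only transcriptional adaptor and Mmp14 a membrane-bound matrix protease. Cd4 lies just inside the ZnF4-/- limit, and Inppl1, at 0.48, is the member closest to it.

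The 2 ZnF1-/- libraries lay about as far apart for the 5 genes as for the median gene, and farther for Inppl1. They differed by 0.12 on the log2 scale for Dkkl1, 0.17 for Eng and for Myo7a, 0.19 for Ppl and 0.33 for Inppl1, where the median over all tested genes was 0.19. The summed granulocyte and monocyte markers differed 5.33-fold between these libraries. Of the 82 other genes that met the pattern upward, 53 differed by more than 1 on the log2 scale between the ZnF1-/- libraries, and 73 were higher in replicate 2. The highest of them were Mmp8 (log2 difference 2.26), Retnlg (2.21) and Anxa2 (2.18). Mmp8, a neutrophil collagenase gene, was at 9.8 and 62.8 RPKM in ZnF1-/- replicates 1 and 2, against 4.1 and 5.7 in wild type. Of the 82 genes, 11 had ZnF1-/- libraries as close as the widest of the 3 higher members, within 0.19. Among the 11 were Cd4 (4.2 and 4.5 RPKM in ZnF1-/- replicates 1 and 2), Spic (2.4 and 2.2) and Vcam1 (8.7 and 7.8). The part of RNA from other cells in the levels of the 5 genes was not tested. The rule for the members asked for a shift in both ZnF1-/- libraries, so their closeness is a description.

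The 30 other lower genes of the pattern were less split, with a median of 0.32 between the ZnF1-/- libraries and 2 genes over 1. The lowest of them were Tigit (-1.68), Rsph9 (-1.63) and Agbl1 (-1.57). Tigit, an inhibitory receptor gene of T and NK cells, had 3.9 RPKM in wild-type replicate 1, 0.2 in replicate 2, and 0.1 and 0.0 in ZnF1-/-. It was thus high only in the wild-type library rich in plasma cell markers. The wild-type libraries of the 5 members differed by at most 0.36 on the log2 scale.

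**Figure D3:**
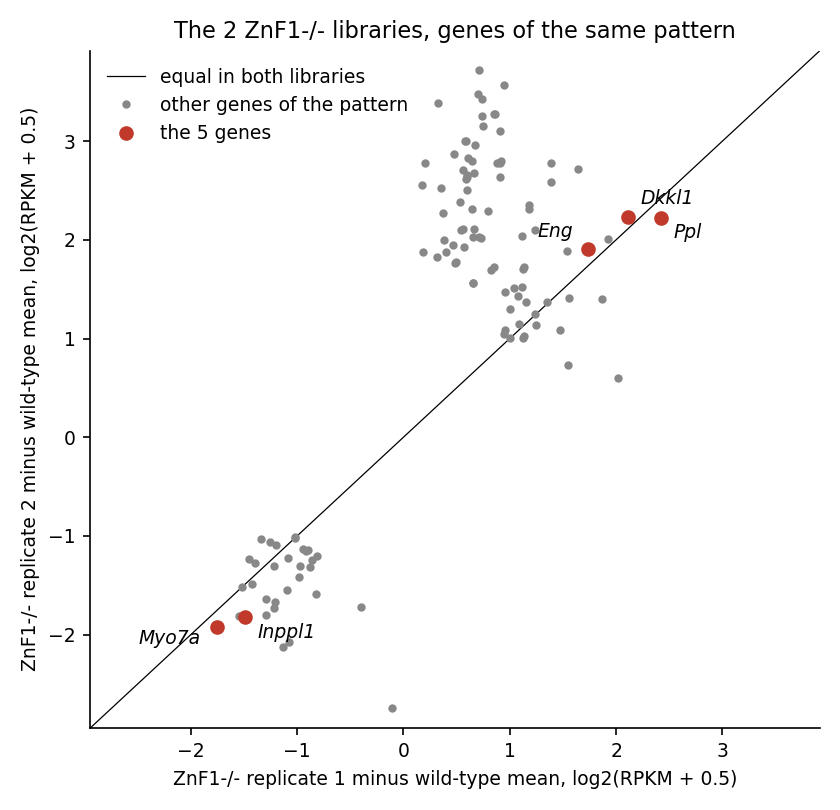
The 117 genes of the pattern, each placed by its log2(RPKM + 0.5) minus the wild-type mean in ZnF1-/- replicate 1 (horizontal) and replicate 2 (vertical); the line marks equal values. The 5 members (red) lie at or near the line, while most of the other higher genes lie above it, with the larger value in replicate 2.

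Most endothelial and epithelial markers were low, while the sums for some other cell types were not. The lists do not cover every cell type that may express the 5 genes. Endoglin marks endothelium, and of 9 endothelial markers 7 stayed below 1 RPKM in every library, with Tek and Emcn listed at 0 throughout; the summed RPKM, mostly Pecam1, which B cells also express, was 79.5 and 68.0 in ZnF1-/- against 98.6 and 93.3 in wild type. Of 6 epithelial markers, 5 stayed below 1 RPKM and Krt5, Krt14 and Krt8 were listed at 0; the sum was 4.5 and 3.4 in ZnF1-/-, compared with 1.3 and 0.9 for wild type and 1.9 and 2.2 for ZnF4-/-. That sum was mostly Epcam, at 4.0 and 2.2 RPKM in ZnF1-/- and 1.1 and 0.7 in wild type (log2 difference 1.33, SE 0.31, limma adjusted p = 0.17). The 7 stem and progenitor markers summed to 4.8 and 13.4 in ZnF1-/-, compared with 2.2 and 3.2 for wild type and 7.9 and 9.0 for ZnF4-/-. Stromal markers summed to 3.1 and 4.3 in ZnF1-/- against 2.1 and 4.3 in wild type. Erythroid and megakaryocyte markers summed to 78.0 and 505.5 in ZnF1-/- against 125.7 and 134.1 in wild type, and T cell markers to 17.9 and 15.0 against 18.3 and 21.2. The T cell sum was mostly Lck, and the other 4 T cell markers were higher in both ZnF1-/- libraries than in either wild-type library. Of these Cd8a was at 1.2 and 1.5 RPKM against 0.2 and 0.2, and Cd3e at 0.4 and 0.7 against 0.2 and 0.3. The part of the epithelial, progenitor, erythroid and T cell levels in the results, Cd4 included, was not tested.

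Over the 6 libraries the 5 genes followed each other closely. Pearson r of log2(RPKM + 0.5) lay between 0.97 and 0.99 among Ppl, Dkkl1 and Eng, was 0.98 between Myo7a and Inppl1, and lay between -0.99 and -0.96 across the sets. The choice by a common pattern makes such values high, and the 6 points share libraries. Among 1807 other genes spanning at least 1 on the log2 scale, Ppl was most like Dkkl1 (r = 0.988), Gm889 (0.982) and Eng (0.970), and Dkkl1 was most like Ppl, Tdrd7 (0.981) and Eng (0.981). Eng was most like Plekhg5, an exchange factor gene for small GTPases (0.994), Tdrd7, a tudor domain gene of RNA granules (0.993), and the lectin gene Cd209d (0.992). Tdrd7 was at 8.1 and 8.8 RPKM in wild type, 15.3 and 17.6 in ZnF1-/-, and 7.0 and 7.9 in ZnF4-/-.

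Myo7a was most like Pipox, a peroxisomal oxidase gene (0.998), Ddah2 (0.985) and Spry2 (0.984). Inppl1 was most like Spry2 (0.996), the kidney salt transporter gene Slc12a3 (0.991) and Ehd2, a membrane-shaping ATPase gene of caveolae (0.989). Spry2, which encodes the Sprouty inhibitor of receptor tyrosine kinase signalling, was at 3.4 and 4.0 RPKM in wild type, 1.3 and 1.2 in ZnF1-/-, and 5.3 and 4.7 in ZnF4-/-. It was among the most alike for both lower members, with means in the order ZnF1-/-, wild type, ZnF4-/- in each.

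Position was not part of the choice. Dkkl1, Myo7a and Inppl1 lie on chromosome 7, Eng on chromosome 2 and Ppl on chromosome 16. For each gene the 3 nearest tested genes on either side, by the gene order of GRCm38.p6, were taken from the fit, 30 genes in all. By limma 0 of the 30 were called in ZnF1-/- against wild type, where the background was 0.271%, and 4 had an unadjusted p under 0.05, as did 11.9% of all tested genes. Their median log2 difference was 0.06, against 0.00 over all tested genes, with a range from -0.72 to 1.20. For 18 of the 30 the ZnF1-/- libraries did not overlap the wild-type ones, as held for 41.5% of all tested genes.

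The nearest genes were Ubn1 (0.13) and Nagpa (0.23) around Ppl, Pih1d1 (0.06) and Tead2 (0.43) around Dkkl1, and St6galnac6 (0.02) and Fpgs (0.23) around Eng. Cd37, a tetraspanin gene of B cells a step beyond Tead2, was at 992.2 and 1200.2 RPKM in wild type and at 1024.9 and 1015.1 in ZnF1-/-. Around Myo7a they were Pak1 (1.20, adjusted p = 0.276 by limma) and Capn5 (-0.07), and around Inppl1 Clpb (0.31) and 3200002M19Rik (0.21). Myo7a and Inppl1 lie on the same stretch of chromosome 7 with 30 tested genes between them. By limma 0 of these were called in ZnF1-/- (3 with an unadjusted p under 0.05, against 11.9% of all tested genes), 12 had a negative difference, and the median was 0.05.

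Of the 30 neighbours, 2 fell in ZnF4-/-, both on the same side of Myo7a. Over all tested genes 1.41% were called lower there. Capn5, a calpain protease gene next to Myo7a, was at 8.2 and 8.6 RPKM in wild type, 8.1 and 7.9 in ZnF1-/-, and 3.2 and 4.3 in ZnF4-/- (log2 difference in ZnF4-/- -1.08, SE 0.17, adjusted p = 0.0207 by limma). Lrrc32, which encodes the surface anchor of latent TGF-beta, was at 4.3 and 2.6 in wild type, 2.0 and 1.7 in ZnF1-/-, and 0.1 in both ZnF4-/- libraries (-2.68, SE 0.29, adjusted p = 0.00616 by limma). Both were higher in ZnF1-/- than in ZnF4-/- (adjusted p = 0.0205 and 0.014 by limma), the reverse of Myo7a. Pde2a, a phosphodiesterase gene near Inppl1, was also called higher in ZnF1-/- than in ZnF4-/- (0.88, SE 0.18, adjusted p = 0.0397 by limma).

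**Figure D4:**
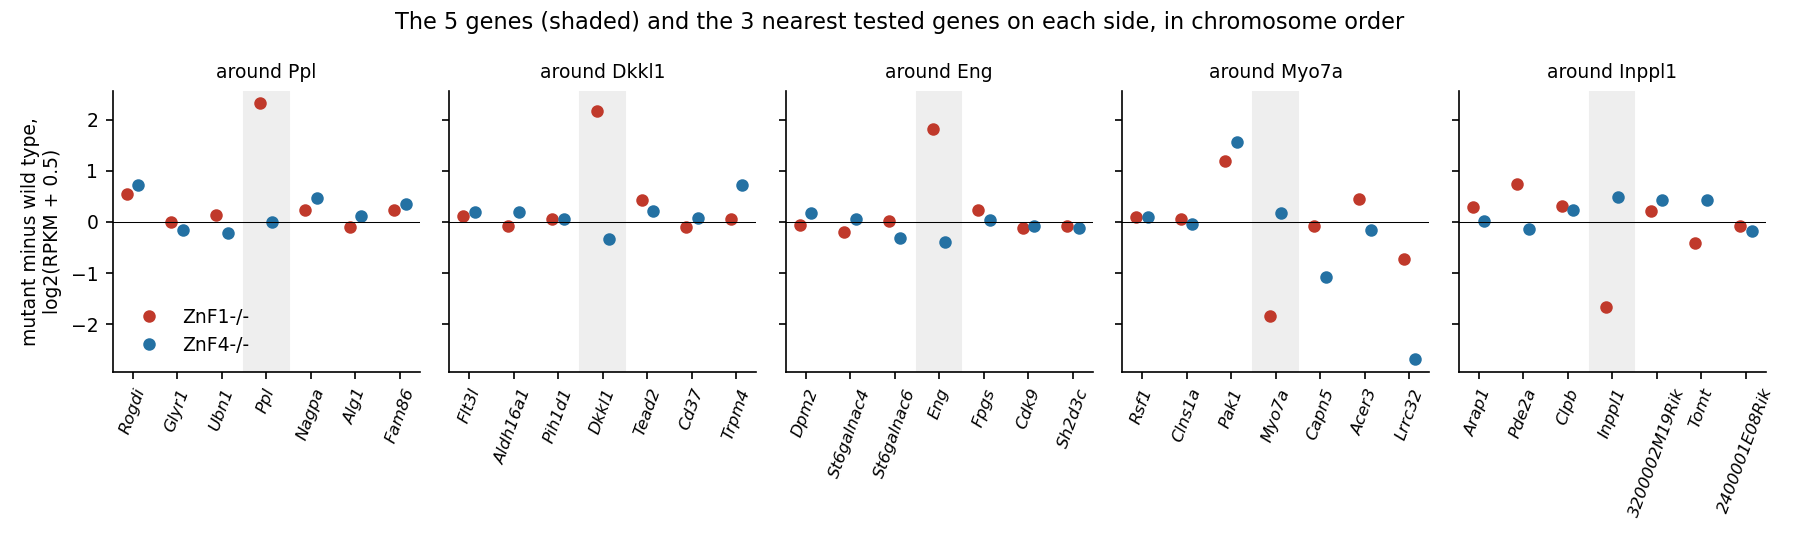
Log2 difference from wild type in ZnF1-/- (red) and ZnF4-/- (blue) for each of the 5 genes (shaded) and the 3 nearest tested genes on each side in chromosome order, with unequal real distances. The red points of the neighbours lie between -0.72 and 1.20; the shaded genes were chosen for their ZnF1-/- difference, so their distance from the neighbours is no result.

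Genes that work with the 5 proteins were then examined from lists of known partners. In ZnF1-/- against wild type, 0 genes of any of these lists were called by limma; those with an unadjusted p under 0.05 numbered 8 of 21 tested genes of TGF-beta and BMP signalling, 8 of 38 of the phosphoinositide pathway, 4 of 5 plakin and desmosome genes, 3 of 14 myosin and Usher protein genes, 2 of 18 Wnt pathway genes and 0 of 12 genes of the Ikaros family and its NuRD partners. Over all tested genes 11.9% had such a p. The median ZnF1-/- differences of these lists were -0.11, -0.03, 0.53, -0.02, 0.06 and 0.03 in that order, against 0.00 over all tested genes. The direct comparison of the mutants, in which 4.78% of all tested genes were called, called 10 list genes, and those named are given with the member they relate to.

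Endoglin acts with TGF-beta and BMP receptors, whose signal is carried by Smad proteins. Smad1, the BMP-responsive transducer, was at 5.6 and 5.1 RPKM in wild type, 9.8 and 9.0 in ZnF1-/-, and 1.5 and 1.4 in ZnF4-/-. The 3 genotypes did not overlap, in the same order as for Eng. Lack of overlap was common among all tested genes. It held for 41.5% in ZnF1-/- against wild type, 50.4% in ZnF4-/- against wild type and 46.8% between the mutants. Smad1 fell in ZnF4-/- (log2 difference -1.58, SE 0.16, adjusted p = 0.00549 by limma), did not pass in ZnF1-/- (0.76, SE 0.16, adjusted p = 0.137), and was higher in ZnF1-/- than in ZnF4-/- (2.34, SE 0.16, adjusted p = 0.00142). Smad3, the TGF-beta-responsive transducer, fell in ZnF4-/- from 10.9 ± 0.283 to 5.45 ± 0.778 RPKM (-0.94, adjusted p = 0.0242 by limma) and was at 7.35 ± 0.636 in ZnF1-/- (-0.54, adjusted p = 0.24). With Lrrc32, 3 of 21 tested genes of the list fell in ZnF4-/-, where 1.41% of all tested genes were called lower, and 18 did not pass; the list median there was -0.23 against -0.02 over all tested genes.

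None of the 5 tested receptor genes passed in any comparison by limma. Tgfbr2, the binding subunit for TGF-beta, was at 107.5 and 87.7 RPKM in wild type, 93.8 and 71.3 in ZnF1-/-, and 77.6 and 84.6 in ZnF4-/-, and Tgfbr1, its signalling partner, lay between 9.1 and 12.4 in all libraries. Acvrl1, the receptor that endoglin assists in endothelium, was at 0.3 and 0.5 RPKM in wild type, 0.4 and 1.2 in ZnF1-/-, and 0.6 and 1.0 in ZnF4-/-. Per length of transcript, the RNA of endoglin in ZnF1-/- was thus above that of Acvrl1 and below that of Tgfbr2.

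Myosin VIIa works with the Usher proteins in hair cells. Among 32 myosin and Usher protein genes, 14 were tested, and Cdh23, the cadherin of the hair cell tip link, was at 0.1 RPKM in every library. Whrn, which encodes whirlin, a scaffold of the Usher proteins, was at 7.2 and 7.8 RPKM in wild type, 3.6 and 3.9 in ZnF1-/-, and 10.5 and 10.2 in ZnF4-/-. Its order of genotype means was that of Myo7a and Inppl1. The Whrn genotypes did not overlap, which held for 41.5% to 50.4% of all tested genes in each comparison. Whrn was lower in ZnF1-/- than in ZnF4-/- (log2 difference -1.35, SE 0.14, adjusted p = 0.00386 by limma), with -0.91 in ZnF1-/- (SE 0.14, adjusted p = 0.0687) and 0.44 in ZnF4-/- (adjusted p = 0.165) against wild type. Myo5a, an organelle motor gene, was also lower in ZnF1-/- than in ZnF4-/- (-0.57, adjusted p = 0.0433 by limma). Myo1f, a myosin gene of white blood cells, was higher (2.33, adjusted p = 0.0167 by limma). It was at 11.9 and 29.7 RPKM in ZnF1-/- replicates 1 and 2, the latter being the library rich in granulocyte RNA. Without ZnF1-/- replicate 2 the log2 difference was 1.69. The part of granulocyte RNA in the Myo1f level was not tested.

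SHIP2 shares its substrate with SHIP1. Inpp5d (SHIP1) was at 126.4 and 102.8 RPKM in wild type, 117.7 and 115.7 in ZnF1-/-, and 126.3 and 121.2 in ZnF4-/-, with a log2 difference of 0.03 in ZnF1-/- (SE 0.14, adjusted p = 0.96 by limma). Per length of transcript, Inpp5d thus lay far above Inppl1 in each library. Further along the same lipid pathway, Inpp4a and Inpp4b act on the product of the SHIP enzymes. Inpp4a rose in ZnF4-/- from 3.95 ± 0.495 to 11.9 ± 1.27 RPKM (1.48, SE 0.18, adjusted p = 0.00821 by limma), and Ocrl, the phosphatase gene of Lowe syndrome in humans, rose from 1.10 ± 0.141 to 3.55 ± 0.0707 (1.34, adjusted p = 0.0449 by limma).

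Inpp4b was at 3.2 and 4.2 RPKM in wild type, 2.9 and 2.0 in ZnF1-/-, and 7.5 and 7.1 in ZnF4-/-. It was lower in ZnF1-/- than in ZnF4-/- (-1.42, SE 0.22, adjusted p = 0.0154 by limma), as were Ocrl (-1.61, adjusted p = 0.0194) and Inpp4a (-0.85, adjusted p = 0.0385). In all, 4 of 38 tested genes of the list, 10.5%, were called lower, compared with 2.69% of all tested genes called lower in ZnF1-/- than in ZnF4-/-. None of the 38 was called higher in that comparison by limma, where 9 had an unadjusted p under 0.05 in either direction, against 2064 of all 10322 tested genes. The list median was 0.07 against 0.03 over all tested genes.

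Dkkl1 is related to the Dickkopf antagonists of Wnt receptors. Dkk1 and Dkk2 were listed at 0 in every library, and Dkk3 and Dkk4 stayed at or below 0.5 RPKM. Of 18 tested Wnt pathway genes, 1 was called between the mutants and 0 in either mutant against wild type. That is 5.56% between the mutants, near the 4.78% of all tested genes. Wls, which carries Wnt proteins to the cell surface for secretion, was at 9.2 and 10.1 RPKM in wild type, 1.2 and 3.3 in ZnF1-/-, and 29.4 and 25.5 in ZnF4-/-. It was lower in ZnF1-/- than in ZnF4-/- (log2 difference -3.46, SE 0.33, adjusted p = 0.00294 by limma), while -2.0 in ZnF1-/- (adjusted p = 0.0815) and 1.46 in ZnF4-/- (adjusted p = 0.0718) against wild type did not pass.

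Periplakin belongs to the plakins and joins desmosomes and keratins. Of 24 genes of that list 14 were at 0 in every library, among them Dsp, the central plakin of desmosomes, and the other cornified envelope plakin, Evpl, was at 0.1 RPKM throughout. The 5 tested genes had positive differences in both ZnF1-/- (median 0.53) and ZnF4-/- (median 0.36), and none passed by limma. Vim, the intermediate filament gene of blood cells, was at 242.2 and 193.4 RPKM in wild type, 333.8 and 365.6 in ZnF1-/-, and 298.3 and 301.7 in ZnF4-/- (0.69, SE 0.16, adjusted p = 0.173 in ZnF1-/-). Plec, a widely expressed plakin gene, went from 12.8 ± 1.13 to 17.6 ± 1.34 (0.44, SE 0.13, adjusted p = 0.245).

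Ikzf1 RNA lay between 168.4 and 287.3 RPKM in all libraries, with log2 differences of 0.05 in ZnF1-/- and 0.58 in ZnF4-/- (adjusted p = 0.94 and 0.111 by limma). Chd4, the remodelling ATPase of the NuRD complex, had differences of 0.11 and -0.44 (adjusted p = 0.829 and 0.167 by limma). A value per transcript does not show whether the exon of a finger is missing.

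**Figure D5:**
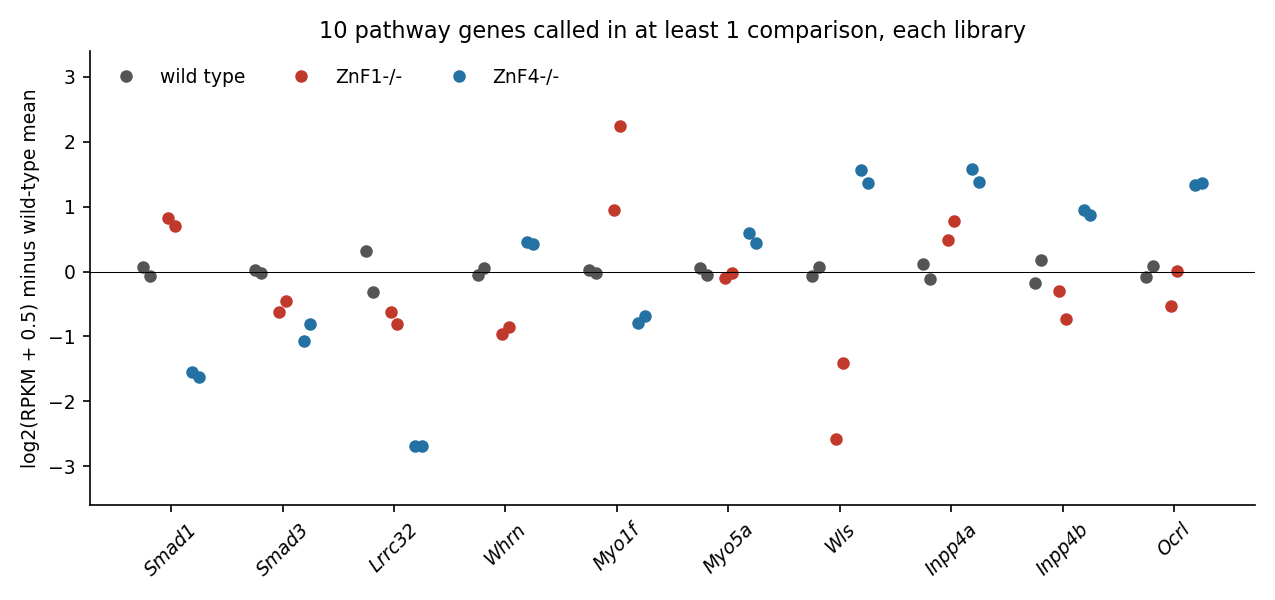
Log2(RPKM + 0.5) minus the wild-type mean in each library for 10 of the 11 pathway genes called in at least 1 comparison, with wild type in grey, ZnF1-/- in red and ZnF4-/- in blue. Smad1 lies higher in ZnF1-/- and lower in ZnF4-/- than in wild type, while Whrn and Wls lie the other way round.

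Calls of these single genes were not stable with so few libraries. All 18 calls among neighbours and partners were lost when either ZnF4-/- library was left out, and the 6 in ZnF4-/- against wild type also when either wild-type library was, while 0 of the 18 changed sign in any of 13 alternatives.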

How the data were processed

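Poly(A) RNA libraries were made with an Illumina TruSeq kit, per the labels' protocols. The authors deposited 1 table of RPKM per RefSeq transcript, rounded to steps of 0.1, with transcript lengths; the submitters' processing notes list mm9, TopHat and bedtools. Tool versions, the reads that set the scale and the handling of strand are not given in the sources used here, and transcripts that overlap or run antisense are not told apart. For transcripts under 150 bases no trial library total put more than 43.7% of values on whole reads within the rounding, so counts were not recovered. Each gene was represented by its transcript of highest mean. Genes with a mean of at least 1 RPKM (10322) were fitted on log2(RPKM + 0.5) with limma 3.58.1 (R 4.3.3; 1 coefficient per genotype, all 6 libraries, eBayes with trend, two-sided, Benjamini-Hochberg), which was tested on simulated data. Alternatives changed the pseudocount, filter, scaling, transcript choice, libraries, genotypes fitted and a replicate block.

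The members, partner lists and markers were chosen with earlier results of these data known. Named are the members and at most 4 called genes of each partner list (else at most 2, by smallest p). Also named are the nearest and any called neighbours, the 3 genes most alike in pattern, and the 3 highest and lowest of the same pattern. Receptors, Inpp5d, Cdh23, the Dickkopf genes, Dsp, Evpl, Cd37, Epcam, Sdc1, Spic, Vcam1 and the called genes of the same pattern fall outside this rule. They were picked once their values were known. Gene order came from GRCm38.p6. Of the marker genes, Ly6g was not used here. A called gene of the phosphoinositide list is not reported here.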

Additional observations from a re-analysis of the deposited data

How the results depend on the processing

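The ZnF1-/- differences of the 5 genes kept their sign under all alternatives run. They moved by more than the spread between replicates for Ppl (3.27 with a pseudocount of 0.1, 1.76 with 1, 2.13 with quantile normalization), Dkkl1 (2.39 with 0.1, 1.96 with 1) and Eng (2.17 with 0.1, 1.52 with 1). In ZnF4-/- the difference moved for Ppl (-0.19 with quantile normalization) and Eng (-0.57 with 0.1, -0.63 with quantile normalization, and -0.54 to -0.24 when 1 library was left out). Leaving out 1 library also took Myo7a from 0.18 to between -0.08 and 0.44, with the sign changed without ZnF4-/- replicate 1, and Dkkl1 from -0.33 to between -0.51 and -0.15 (both without a wild-type library). The cause was not tested. Counts of called genes were unstable. For ZnF1-/- against wild type, 28 became 0 without a filter on low values (1596 at an unadjusted p under 0.05), 13 with quantile normalization, 0 with the 2 genotypes only (1053), and 0 to 512 when 1 library was left out: 0 without either wild-type or either ZnF4-/- library, 512 without ZnF1-/- replicate 1 and 7 without ZnF1-/- replicate 2. For ZnF4-/- against wild type, 330 became 189 without a filter, 594 with the 2 genotypes only, and 0 to 591 when 1 library was left out. Between the mutants, 493 became 309, 249, and 0 to 814. Fewer samples then estimate the spread. Lrrc32 in ZnF4-/- was at -4.11 and between the mutants at 3.28 with a pseudocount of 0.1. Depth is unknown, which limits the genes below 1 RPKM.

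Same-numbered libraries share only a number: across genes their deviations from the group means correlated with r = 0.28 for ZnF1-/- with wild type, -0.03 for ZnF4-/- with wild type and 0.21 for the mutants. With the replicate block the counts were 27, 327 and 529, and the calls of Inpp4a and Myo5a between the mutants were lost.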
